A study of Mus musculus with 9 samples.

Results

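The 42 genes described here are known markers of cells other than lymphocytes: 17 epithelial, 10 endothelial and 15 stromal genes, of 23466 genes in the table. They were picked by symbol from such markers, with their levels in lung and meningeal libraries of sorted group 2 innate lymphoid cells (ILC2s) already seen. All 42 symbols were found in the table, 1 row each. The lung against meninges difference therefore took part in choosing them and is given as a description. Where edgeR calls on it are counted, the count supports nothing, since the genes were chosen on the same values. For stromal genes, Pdgfra among them, the difference between injured and uninjured meninges had been seen too.

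ILC2s are lymphocytes without antigen receptors that reside in tissues and secrete type 2 cytokines, and their RNA was sequenced in 9 libraries, 3 per group. All came from wild-type C57/Bl6 mice aged 10 weeks. The cells were taken from the brain meninges of mice left uninjured, from those of mice given an 80 kdyn spinal cord contusion 24 h earlier, or from the lung of mice left uninjured. The labels describe a sort of live CD45-positive, lineage-negative, ST2-positive, Thy1-positive cells from 5 mice pooled per group. Whether every library had a pool to itself is not stated, and p-values therefore cover only the spread among these libraries, which may be technical. No group was labelled as sham-operated, so the contusion and the surgery around it cannot be told apart.

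Epithelial cells line the airways and air sacs of the lung, endothelial cells line blood vessels, and fibroblasts and mural cells make up the connective tissue around them. Alveolar type 2 cells secrete surfactant, a film of lipids and proteins that keeps the air sacs open, while flat alveolar type 1 cells carry gas exchange and club cells secrete proteins into the small airways. None of these cell types is known to carry CD45, the leukocyte antigen of the sort gate. Of the 42 genes, 12 are also known in leukocytes: Hopx, Lamp3, Epcam, Krt8, Krt18, Cdh1, Napsa, Pecam1, Eng, Vwf, Fn1 and Sparc.

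Library totals lay between 13407277 and 18253462 counts, and levels are given as CPM, read counts scaled to library size with the trimmed mean of M values. A count of 0 allows up to 3 counts, or 0.163 to 0.239 CPM, with regard to counting error only, since the RNA was amplified and reads are not separate molecules. The 8 genes listed for ILC2s and their gate (Ptprc, Il1rl1, Thy1, Gata3, Rora, Id2, Il7r and Il2ra) summed to 7608 to 8002 CPM in uninjured meninges, 8213 to 10933 in injured meninges and 7508 to 9486 in lung, so genes of the labelled cell type were abundant in all libraries. Injured meninges 2 had the fewest detected genes, 13465, against 15761 to 18452 in the others.

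To show the start regions of genes that behaved unlike each other among the lung libraries, the 250 bases before the RefSeq start (GRCm38.p6) of 4 genes are printed 5′ to 3′. Sftpa1 and Cldn18 were over 10-fold lower in lung 2 than in the mean of the other lung libraries, whereas Inmt and Pdgfra were not. The promoter table held 24 of the 42 genes. Capitals mark exact matches, on either strand, to CTCAAG (a form of the site of the lung and thyroid factor NKX2-1), AGGAAG (a form of the ETS family site) or TATAAA (the TATA box). No matches overlapped.
Sftpa1, chr14:41131538-41131787, plus strand: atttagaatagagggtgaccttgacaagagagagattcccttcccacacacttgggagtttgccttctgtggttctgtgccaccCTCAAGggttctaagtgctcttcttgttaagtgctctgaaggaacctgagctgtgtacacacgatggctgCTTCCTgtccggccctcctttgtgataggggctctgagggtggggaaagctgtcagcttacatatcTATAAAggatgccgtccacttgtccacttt
Cldn18, chr9:99717268-99717517, minus strand: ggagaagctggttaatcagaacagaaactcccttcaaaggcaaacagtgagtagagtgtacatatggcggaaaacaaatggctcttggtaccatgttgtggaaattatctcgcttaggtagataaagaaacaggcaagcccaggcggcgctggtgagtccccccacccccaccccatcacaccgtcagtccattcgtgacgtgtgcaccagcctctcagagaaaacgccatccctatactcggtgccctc
Inmt, chr6:55174991-55175240, minus strand: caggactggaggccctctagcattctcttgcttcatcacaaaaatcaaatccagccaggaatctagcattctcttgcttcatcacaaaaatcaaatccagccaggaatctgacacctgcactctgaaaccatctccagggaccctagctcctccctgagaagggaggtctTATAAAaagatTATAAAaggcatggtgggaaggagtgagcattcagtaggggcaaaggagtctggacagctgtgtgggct
Pdgfra, chr5:75152001-75152250, plus strand: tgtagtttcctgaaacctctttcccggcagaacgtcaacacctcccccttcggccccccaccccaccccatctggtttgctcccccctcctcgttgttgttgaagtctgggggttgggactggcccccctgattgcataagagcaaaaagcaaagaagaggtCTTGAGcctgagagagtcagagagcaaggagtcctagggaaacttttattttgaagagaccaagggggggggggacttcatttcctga
The Sftpa1 region held CTCAAG starting 166 bases, AGGAAG on the opposite strand starting 96 bases and TATAAA starting 30 bases before the start site. Inmt held TATAAA 80 and 69 bases before it, Pdgfra held CTCAAG on the opposite strand 88 bases before it, and the Cldn18 region held none of these letters. RefSeq lists 2 starts for Cldn18, the upstream of which is shown, and counts per gene do not tell them apart. CTCAAG occurred for 9 of the 24 genes and in 13.3% of all 32851 promoters. AGGAAG occurred for 9 of 24 and in 29.5%, and TATAAA for 3 of 24 and in 12.4%. A gene was counted if any of its listed starts had a match, while the percentages are of single promoters. The 2 are therefore unlike units and show no enrichment. These are matches of letters, not binding sites.

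As summed CPM, the 17 epithelial genes stood at 2655, 848 and 1665 in the 3 lung libraries, at 28.1, 12.5 and 14.2 in uninjured meninges and at 38.5, 39.9 and 19.7 in injured meninges. The lung mean (1722 ± 905, SD, n = 3) was 94.3 times that of uninjured meninges (18.3 ± 8.55) and 52.7 times that of injured meninges (32.7 ± 11.2). Scgb1a1 alone gave 52.8% of the lung sum, and Epcam gave 39.4% of that of uninjured meninges. The 10 endothelial genes summed to 1403, 458 and 1157 CPM in lung, 417, 104 and 159.7 in uninjured meninges and 224, 202 and 101 in injured meninges. Their lung mean (1006 ± 490.4) was 4.43 times that of uninjured meninges (227 ± 167), or 7.61 times without uninjured meninges 1. Ptprb gave 47.3% of their lung sum and 33.3% of that of uninjured meninges. Without the genes also known in leukocytes, the endothelial means were 774 CPM in lung and 118 CPM in uninjured meninges. The 15 stromal genes summed to 601, 387 and 938 CPM in lung, 211, 19.7 and 75.4 in uninjured meninges and 93.8, 24.6 and 13.3 in injured meninges. Their lung mean (642 ± 278) was 6.29 times that of uninjured meninges (102 ± 98.3), or 13.5 times without uninjured meninges 1, and 14.6 times that of injured meninges (43.9 ± 43.6), or 33.9 times without injured meninges 1. All 3 classes separated lung from both meningeal groups, with no overlap, and both meningeal groups overlapped each other in every class. In bulk RNA, fewer cells of a type and less RNA per cell cannot be told apart.

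**Figure D1:**
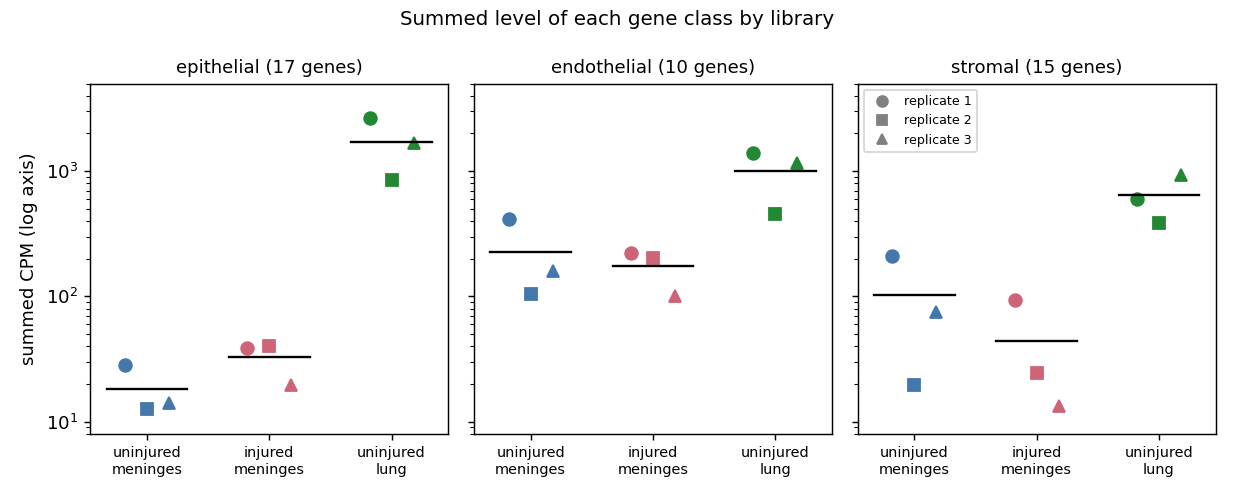
Summed CPM (log axis) of the epithelial, endothelial and stromal genes in each library, with marker shape for the replicate number and a line at the group mean. Lung 2 is the lowest lung library in each class, and uninjured meninges 1 is the highest uninjured meningeal library in each class.

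Gene by gene, the lung libraries were above all 3 uninjured meningeal libraries for 24 of the 42 genes, against 10.6% of the 15117 genes tested, and above all 6 meningeal libraries for 23, against 5.38%. This held against uninjured meninges for 12 of 17 epithelial, 4 of 10 endothelial and 8 of 15 stromal genes. No gene of the 42 was lower in lung in that sense, against 7.63% of all genes. The filter on low counts kept 36 of the 42 genes, and 8 of those were called higher in lung by edgeR (adjusted p under 0.05), against 0.595% of all genes tested: Sftpa1, Cldn18, Clic5, Tmem100, Dpt, Inmt, Pcolce2 and Bmp3. Without lung 3 the calls were 5 of the 42. Several of these genes passed the filter only through their lung libraries, and the counts describe the choice of genes.

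**Figure D2:**
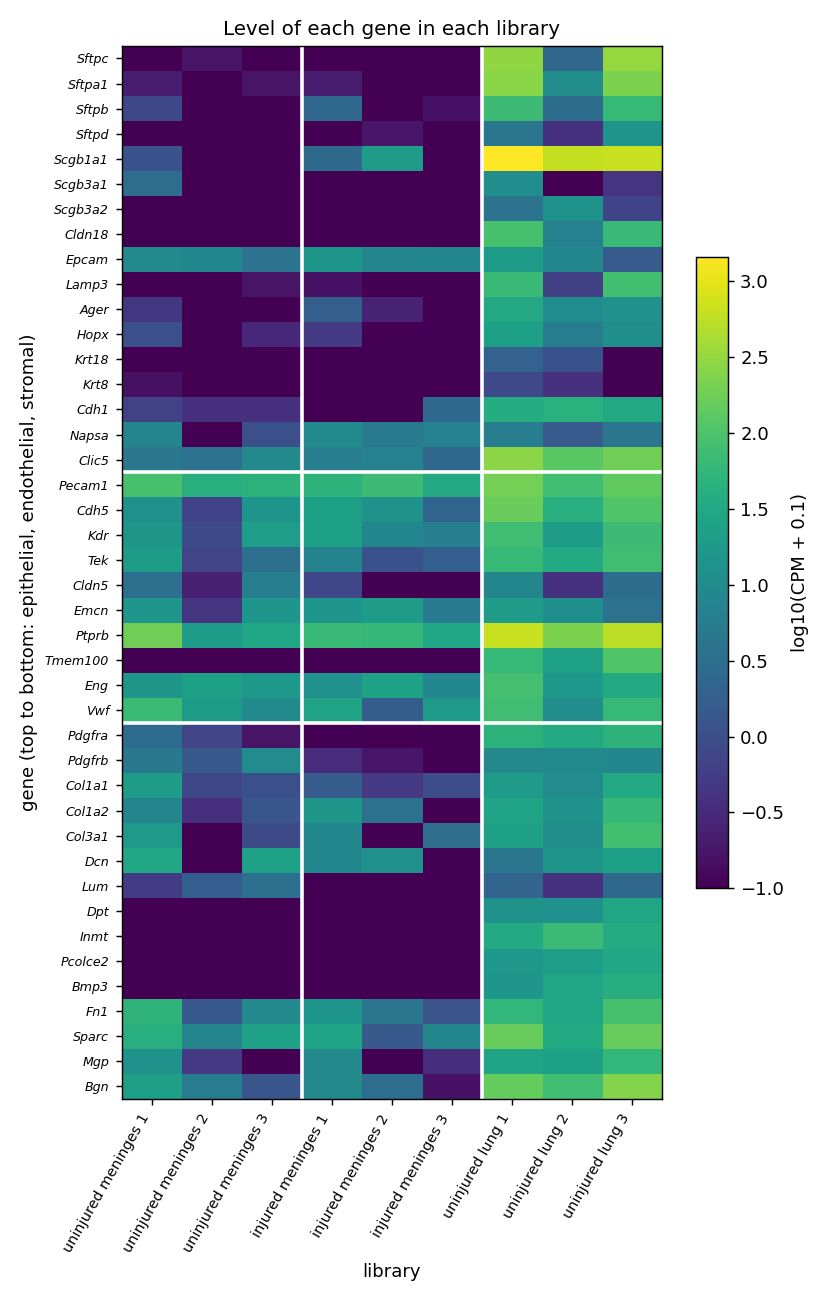
Level of each of the 42 genes (rows) in each of the 9 libraries (columns), as log10(CPM + 0.1), with white lines between gene classes and between groups. The dark blocks in the meningeal columns are genes at or near 0 there, such as Sftpc, Cldn18, Tmem100 and Inmt, while Epcam, Pecam1 and Ptprb have reads in all 9 libraries.

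Among surfactant genes, Sftpc, which encodes surfactant protein C, reached 296, 2.28 and 322 CPM in lung, with 1 count in all 6 meningeal libraries together. Sftpa1, which encodes surfactant protein A, had 266, 11.3 and 216 CPM in lung and at most 0.12 CPM in any meningeal library. Sftpb, encoding surfactant protein B, had 72.0, 2.87 and 61.2 CPM in lung. It was at 0.71, 0 and 0 in uninjured and 2.45, 0 and 0.063 in injured meninges, so its few meningeal reads lay mostly in replicate 1 of each group. Sftpd, the lung collectin surfactant protein D, had 4.18, 0.29 and 14.1 CPM in lung and was at 0 in uninjured meninges, at least 33.2-fold lower than in lung, or at least 12.0-fold without lung 3. Lamp3, a protein of the lamellar bodies in which surfactant is stored and also a marker of mature dendritic cells, had 64.8, 0.52 and 78.4 CPM in lung and at most 0.067 CPM in any meningeal library. Lung 2 was by far the lowest lung library for all 5 of these genes. Napsa, a protease that processes surfactant protein B and that some leukocytes also make, differed from them. It had 6.02, 1.47 and 4.29 CPM in lung, 7.84, 0 and 0.94 in uninjured and 9.44, 5.01 and 6.83 in injured meninges, with overlap of all groups.

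Scgb1a1, the main secreted protein of club cells, had 1456, 613 and 661 CPM in lung. Divided by exon length it was also the highest of the 42 genes in lung, at 1911 CPM per kb against 199.9 for Sftpc, the next. In meninges it was at 1.03, 0 and 0 CPM without injury and at 2.69, 19.7 and 0 after it, most of it in injured meninges 2. Its log2 fold change with injury was 4.28 ± 1.88 (SE, edgeR adjusted p = 0.58), or 1.83 without injured meninges 2. Without uninjured meninges 1, which leaves the uninjured group at 0, the fitted value was 9.81 and is no bound. Scgb3a1, another secretoglobin, had 10.9, 0 and 0.32 CPM in lung and 2.94 CPM in uninjured meninges 1. Scgb3a2 had 3.75, 13.8 and 0.58 CPM in lung, highest in lung 2, and was at 0 in meninges, at least 32.5-fold lower in uninjured meninges than in lung, or 11.6-fold without lung 2. Of these 3 airway genes, Scgb3a2 alone was not lowest in lung 2, and Scgb1a1 was nearly as low in lung 3 as in lung 2.

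Among genes of alveolar type 1 cells, Clic5, a chloride channel related protein, was highest, with 271, 124 and 183 CPM in lung and 2.44 to 8.93 CPM in the 6 meningeal libraries, a ratio of 34.5 between lung and uninjured meninges. Cldn18, a tight junction claudin, had 90.5, 6.55 and 65.3 CPM in lung and 0 counts in meninges, at least 291-fold lower in uninjured meninges than in lung, or 193-fold without lung 1. Ager, the receptor for advanced glycation end products, had 32.1, 10.4 and 12.9 CPM in lung and at most 1.73 in meninges. Hopx, a homeodomain protein also made by lymphocytes, had 23.5, 5.52 and 11.9 CPM in lung and at most 0.93 in meninges. The 4 genes were lowest in lung 2, where Cldn18 had 0.084 and Clic5 had 0.55 of the mean of the other lung libraries.

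None of the 4 general epithelial genes was lowest in lung 2. Cdh1, encoding the adhesion protein E-cadherin, had 37.4, 45.4 and 32.3 CPM in lung and 0 to 2.51 CPM in meninges, and was highest in lung 2. Epcam, an epithelial adhesion protein that some dendritic cells also carry, overlapped in all groups, with 9.20, 8.71 and 3.69 CPM in uninjured meninges, 15.8, 7.87 and 7.90 after injury and 18.3, 8.32 and 1.47 in lung. The keratin genes were close to the detection limit. Krt18 had 1.97, 1.03 and 0 CPM and Krt8 had 0.74, 0.29 and 0 CPM in lung, and in meninges Krt18 had no count and Krt8 had 1. Of these 4 genes, Cdh1 alone separated lung from meninges.

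Of the 10 endothelial genes, 9 had reads in all 3 groups, and Tmem100 had reads in lung libraries only. Pecam1, an adhesion protein that leukocytes share, stood at 194, 78.3 and 140.2 CPM in lung, at 88.0, 40.8 and 46.5 without injury in meninges and at 48.1, 71.3 and 32.8 in injured meninges. Cdh5, the endothelial cadherin, had 165, 41.2 and 107 CPM in lung, 12.0, 0.58 and 14.1 in uninjured and 23.1, 13.8 and 2.13 in injured meninges. Lung lay above both meningeal groups for Cdh5, and overlapped uninjured meninges for Pecam1. Kdr, the main VEGF receptor, had 78.3, 18.9 and 72.6 CPM in lung and 0.84 to 20.9 CPM in uninjured meninges, which overlapped. Tek, the angiopoietin receptor, had 61.4, 34.5 and 77.9 CPM in lung and 19.5, 0.65 and 3.36 in uninjured meninges. Ptprb, an endothelial phosphatase, had 654, 221 and 552 CPM in lung, 179.8, 19.3 and 27.8 in uninjured meninges and 65.7, 59.6 and 27.4 in injured meninges. Lung was above all uninjured meningeal libraries for Tek and Ptprb as well as Cdh5. For these genes and Kdr, uninjured meninges 2 was the lowest of its group.

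Tmem100, a membrane protein of lung endothelium, had 62.2, 24.0 and 107 CPM in lung and no count in the 6 meningeal libraries. Claudin 5, the tight junction protein of brain vessels encoded by Cldn5, had 8.17, 0.29 and 2.88 CPM in lung, 3.27, 0.13 and 5.98 in uninjured meninges and 0.66, 0 and 0 in injured meninges. Emcn, an endothelial sialomucin, had 20.0, 11.9 and 3.52 CPM in lung and 14.6, 0.32 and 15.4 in uninjured meninges. Eng, a TGF-beta co-receptor, had 85.0, 16.2 and 33.6 CPM in lung and 15.9, 23.4 and 16.5 in uninjured meninges. Vwf, the clotting factor of vessels and platelets, had 75.7, 11.05 and 60.9 CPM in lung and 68.0, 18.5 and 9.20 in uninjured meninges. Lung and uninjured meninges overlapped for Cldn5, Emcn, Eng and Vwf.

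The stromal genes formed a set without any meningeal read and a set with reads in both tissues. Inmt, a methyltransferase abundant in lung stroma, had 34.5, 69.1 and 36.8 CPM in lung. Bmp3, a ligand of the TGF-beta family, had 15.3, 28.5 and 39.7 CPM, Pcolce2, which enhances procollagen processing, had 16.6, 20.5 and 30.7 CPM, and Dpt, the matrix protein dermatopontin, had 13.7, 12.7 and 27.5 CPM. These 4 genes had no count in any meningeal library, and lung 2 was not the lowest for 3 of them, Inmt, Bmp3 and Pcolce2. Pdgfra, the PDGF receptor of fibroblasts, had 46.9, 33.7 and 48.8 CPM in lung and 0 to 2.88 CPM in meninges. Bgn, the matrix proteoglycan biglycan, had 151, 76.5 and 244 CPM in lung and 22.5, 5.55 and 1.21 in uninjured meninges. Mgp, a calcification inhibitor of the matrix, had 26.4, 23.4 and 56.4 CPM in lung and 13.3, 0.39 and 0 in uninjured meninges. Sparc, a collagen-binding matrix protein, had 156, 33.1 and 158 CPM in lung and 41.3, 7.87 and 24.3 in uninjured meninges.

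Collagen genes varied widely among lung libraries and were highest in lung 3. Col1a1 and Col1a2, the chains of type I collagen, had 19.3, 10.2 and 35.0 CPM and 26.4, 13.8 and 60.02 CPM in lung, and Col3a1, of type III collagen, had 23.0, 11.4 and 80.6 CPM. In uninjured meninges Col1a1 had 19.3, 0.71 and 0.94 CPM and Col3a1 had 17.5, 0 and 0.81 CPM, nearly all of it in uninjured meninges 1. Fn1, fibronectin, likewise had 51.8, 1.29 and 9.001 CPM there. Dcn, the proteoglycan decorin, had 29.6, 0 and 24.5 CPM in uninjured meninges and 4.24, 15.0 and 21.9 CPM in lung. Uninjured meninges 1 was the highest of its group for 9 of 15 stromal genes, 10 of 17 epithelial and 4 of 10 endothelial genes, against 34.0% of all genes tested. Uninjured meninges 2 was the lowest of its group for 7 of 10 endothelial, 7 of 15 stromal and 5 of 17 epithelial genes, against 31.1% of all genes tested.

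The lung libraries differed from each other, and the difference was not the same for all gene groups. Lung 2 was the lowest of the 3 for 31 of the 42 genes, against 36.6% of all genes tested, and lung 1 and lung 3 were lowest for 4 and 7. By class, lung 2 was lowest for 12 of 17 epithelial, 9 of 10 endothelial and 10 of 15 stromal genes. The median level in lung 2 relative to the mean of the others was 0.038 for the 6 alveolar type 2 genes, 0.39 for the 4 alveolar type 1 genes, 0.58 for the 3 club and secretory genes, 0.94 for the 4 general epithelial genes, 0.29 for the 10 endothelial genes and 0.57 for the 15 stromal genes. For all genes tested it was 0.90. The club and secretory median is that of Scgb1a1, since Scgb3a1 had no count in lung 2 and Scgb3a2 was highest there. All 4 general epithelial genes are also known in leukocytes, and Krt8 and Krt18 were close to the detection limit. Whether RNA of airway or other epithelial cells as such was kept in lung 2 was therefore not tested by these medians. Lung 3 was the highest for 13 of 15 stromal genes and lung 1 for 8 of 10 endothelial and 12 of 17 epithelial genes.

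**Figure D3:**
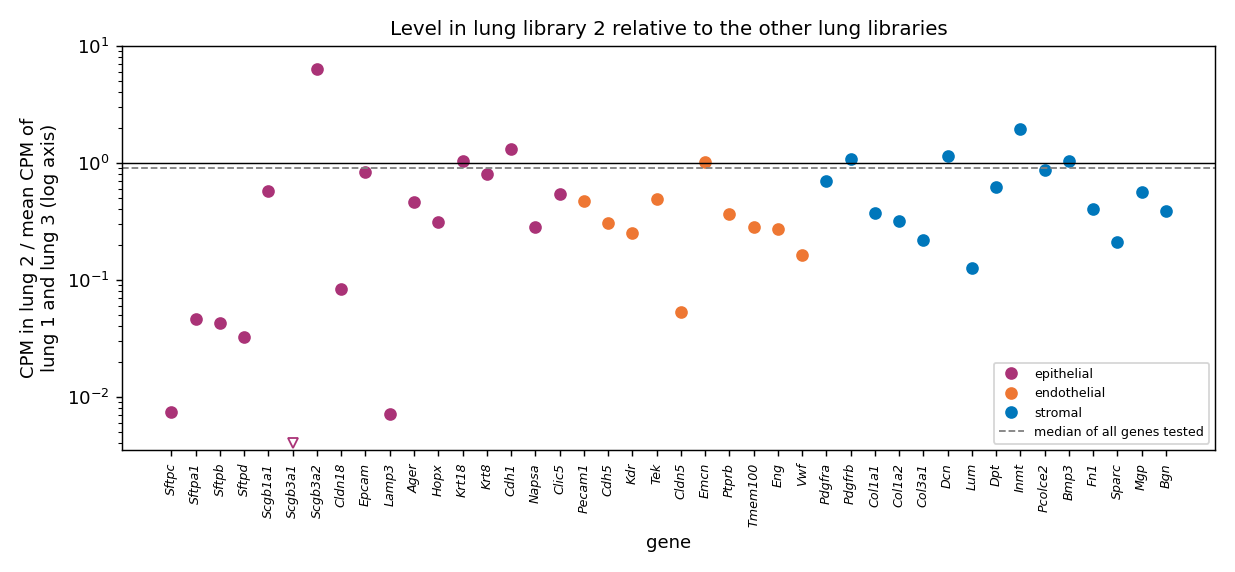
CPM of each gene in lung 2 divided by the mean of lung 1 and lung 3 (log axis), coloured by gene class, with the median of all genes tested as a dashed line. The open triangle is Scgb3a1, which had no count in lung 2. Sftpc and Lamp3 lie lowest of the measured ratios, and Scgb3a2, Inmt and Cdh1 lie furthest above 1.

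Genes of the same cell types outside the 42, from lists drawn up with earlier results of these data known, were also mostly lowest in lung 2. This held for 15 of 24 further epithelial, 19 of 24 further endothelial and 21 of 30 further fibroblast genes, against 36.6% of all genes tested. A single lowest lung library existed for 22, 22 and 26 genes of these lists. Of the 11 meningeal fibroblast genes in the table, by contrast, 1 was lowest in lung 2 and 4 in lung 1. Slc34a2, the phosphate transporter of alveolar type 2 cells and the most abundant of the further epithelial genes, had 183, 0.29 and 152 CPM in lung. Cd93, the most abundant further endothelial gene, had 211, 135 and 321 CPM, and Npnt, the most abundant further fibroblast gene, had 144, 89.7 and 143.9 CPM. The 11 myeloid genes in the table summed to 461, 46.8 and 567 CPM in lung, 29.4 to 121 in uninjured and 78.7 to 191 in injured meninges. Lyz2, the most abundant of them, gave 326, 6.78 and 425 CPM of the lung sums, so their pattern among lung libraries rests mostly on 1 gene. The defining alveolar macrophage genes Marco and Siglecf were at 0 in uninjured meninges, where the rest of the 11 had reads. All 11 had reads in lung, and 9 of them were lowest in lung 2, against 36.6% of all genes tested. The myeloid sum in lung 2 was 0.091 of the mean of the other lung libraries, and that of the 8 ILC2 and gate genes was 1.21 of it. Lung 2 had 16631 detected genes and the others 18066 and 18078. The part of myeloid cells and of detection in the difference between lung libraries was not tested.

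In the lung against uninjured meninges contrast, edgeR called 0.595% of all genes tested higher in lung and 0.635% in either direction. None of the 12 further epithelial genes tested was called, 1 of 21 further endothelial genes was higher in lung (Cd93) and so were 2 of 25 further fibroblast genes. The latter, Gpx3 and Mfap4, were named after their values were seen. Gpx3, an extracellular peroxidase, had 77.4, 23.1 and 41.3 CPM in lung and 0.60 to 1.09 CPM in uninjured meninges. Mfap4, a microfibril protein, had 57.8, 47.3 and 58.9 CPM in lung and 1.09, 0 and 0 in uninjured meninges. The 8 genes of brain vessels had a summed level of 57.4 to 206 CPM in uninjured meninges, 81.2 to 186 in injured meninges and 35.4 to 63.7 in lung, with overlap between lung and uninjured meninges. Of the 7 tested, 1 was called lower in lung, Slco1a4, an organic anion transporter of the blood-brain barrier, also named after its values were seen. Slco1a4 reached 53.8, 4.84 and 13.6 CPM without injury and 3.64, 44.5 and 0.63 CPM after it, and had no count in lung. Meningeal fibroblast genes summed to 10.7 to 18.8 CPM in uninjured and 0.95 to 7.83 in injured meninges, without overlap, and to 35.3 to 97.9 CPM in lung, where Foxd1, Crabp2, Ptgds and Zic1 were at 0. Ogn, a matrix proteoglycan and the most abundant of them, gave 28.3, 30.5 and 82.8 CPM of the lung sums. Without Ogn the sums were 7.01 to 15.1 CPM in lung, 7.35 to 10.6 in uninjured and 0.56 to 3.89 in injured meninges.

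The injury comparison asked whether RNA of these cell types in the meningeal ILC2 libraries differed after spinal cord contusion. None of the 42 genes was called higher or lower by edgeR, where 0.192% of all genes tested were called, and 0.0595% were called lower. Of the 36 genes tested, 30 had a read in meninges. The others passed the filter through their lung libraries and could not be called. At an unadjusted p under 0.05 there were 4 genes of 36 tested, all stromal and all lower after injury, which is a share of 11.1% against 8.94% of all genes in either direction and 4.36% lower. They were 4 of the 15 stromal genes, of which 11 had meningeal reads, and the injury values of stromal genes were already known. Without injured meninges 1 the count was 10 of 41 tested, or 24.4% against 12.2% of all genes, and in a fit of the 6 meningeal libraries alone it was 1 of 20. The libraries of the groups did not overlap for 3 of 42 genes, each lower after injury, against 6.79% of all genes lower in that way, and for 0 genes higher after injury, against 5.35%. The share of genes without overlap was near the background, and 8 of the 42 had no meningeal read and so could not separate. DESeq2 called 2 of the 42, Pdgfra and Pdgfrb, against 1.81% of the genes to which it gave an adjusted p.

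The genes with the smallest p were the PDGF receptors. Pdgfra had 2.88, 0.65 and 0.067 CPM in uninjured meninges, the last from 1 count, and no count after injury. It was at least 5.94-fold lower, a bound that became 1.76-fold when uninjured meninges 1 was left out (edgeR adjusted p = 0.14, DESeq2 adjusted p = 0.0026). Pdgfrb, the PDGF receptor of pericytes and smooth muscle, stood at 4.68, 1.36 and 10.2 CPM without injury and at 0.24, 0.080 and 0 CPM after it, which is -5.55 ± 1.63 (SE) as log2 fold change (edgeR adjusted p = 0.32, DESeq2 adjusted p = 0.0036). The 2 receptors were lower in every injured than in every uninjured library. Lum, the proteoglycan lumican, had 0.44, 1.68 and 3.22 CPM in uninjured meninges and no count after injury, at least 8.81-fold lower, or 5.23-fold as the bound without uninjured meninges 3 (edgeR adjusted p = 0.41). Col1a1 had a log2 fold change of -2.87 ± 1.25 (edgeR adjusted p = 0.52) and of 0.20 without uninjured meninges 1. Levels of these 4 genes in injured libraries were at most 1.55 CPM, which limits the size of difference that can be seen. Pdgfra and Lum did not pass the filter on low counts in the fit of the 6 meningeal libraries alone.

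**Figure D4:**
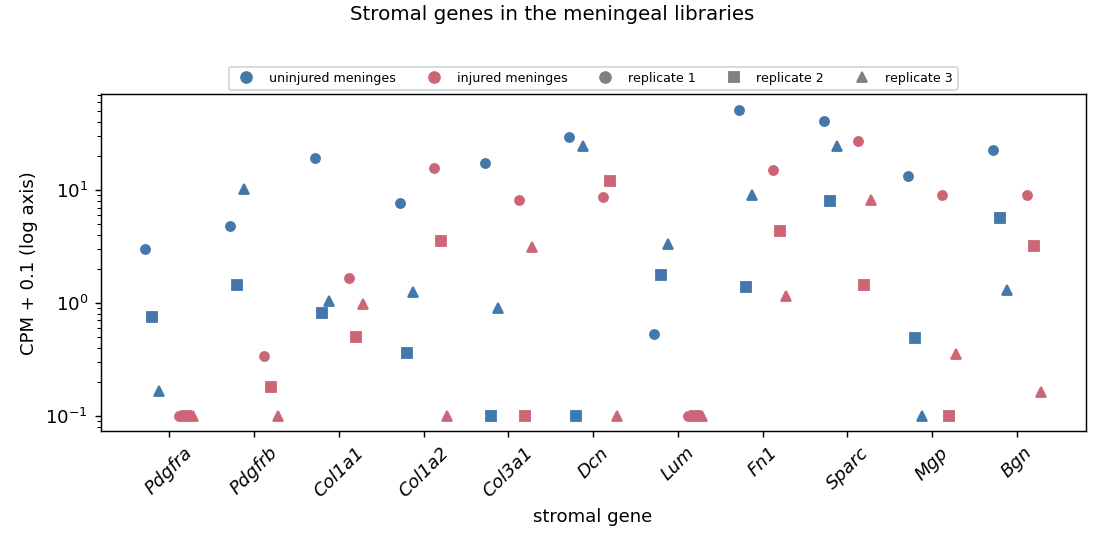
CPM + 0.1 (log axis) of the 11 stromal genes with reads in meninges, in the uninjured and injured meningeal libraries, with marker shape for the replicate number. Injured points of Pdgfra, Pdgfrb and Lum lie below all uninjured points, while for the other genes the groups overlap and the highest uninjured point is mostly uninjured meninges 1.

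The remaining stromal genes with meningeal reads overlapped between injured and uninjured meninges. Fn1 had 15.1, 4.22 and 1.07 CPM after injury, Sparc had 26.9, 1.35 and 8.02 CPM and Bgn had 8.90, 3.10 and 0.063 CPM. Of the 11 stromal genes tested that had meningeal reads, 10 had a negative log2 fold change with a median of -1.40, the same with Pdgfra and Lum at their bounds. All genes tested with meningeal reads had a median of -0.01, 50.4% of them negative. Without uninjured meninges 1, the stromal median was 0.20 with 5 of 11 negative, and without injured meninges 1 it was -2.97. The 9 endothelial genes had a median of -0.24, or 0.22 without uninjured meninges 1 and 0.03 without injured meninges 3. The 10 epithelial genes had a median of 0.88, and of -0.49 without injured meninges 1. For each class, leaving out 1 of these libraries turned the sign of the median.

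Markers of the same and neighbouring cell types gave no call in the main edgeR fit of the injury comparison either. None of 21 further endothelial, 25 further fibroblast, 12 further epithelial, 9 mural, 7 brain endothelial or 4 meningeal fibroblast genes tested was called by edgeR. Of all genes tested, 0.192% were called. Without the filter on low counts, edgeR called 1 of 24 further endothelial genes lower, against 26 of all 23466 genes. The median log2 fold change was -2.79 for the further endothelial, -1.26 for the further fibroblast and 0.36 for the further epithelial genes tested. Whether these medians depend on single libraries was not tested. At an unadjusted p under 0.05 there were 9 of the 21 further endothelial genes, 7 lower and 2 higher after injury. There were also 6 of the 25 further fibroblast genes, all lower, and 4 of the 12 further epithelial genes, 2 in each direction. The share of all genes was 8.94% in either direction and 4.36% lower. DESeq2 called 2 of 20 further endothelial genes and 1 of 24 further fibroblast genes lower, against 122 of all 14738 genes to which it gave a p. The count of further endothelial genes at that p was 15 of 22 without injured meninges 1, 4 of 22 without injured meninges 3 and 1 of 13 in the fit of the 6 meningeal libraries alone. The further fibroblast count was 3 of 25 with the replicate number as a block and 0 of 8 in the 6-library fit. The further epithelial count was 1 of 12 with the block, 1 of 15 without uninjured meninges 3 and 0 of 4 in the 6-library fit. Flt4, the VEGF receptor of lymphatic vessels and the further endothelial gene with the smallest p, had 24.8, 2.77 and 0.34 CPM in uninjured meninges and no count after injury (edgeR adjusted p = 0.19). Serping1, a complement inhibitor and the further fibroblast gene with the smallest p, had 11.5, 0.45 and 0 CPM without injury and 0, 0 and 0.063 CPM after it (edgeR adjusted p = 0.25). The high values of both genes lay in uninjured meninges 1. Mural genes summed to 155, 29.8 and 117 CPM without injury and 91.8, 40.6 and 13.4 CPM after it, with overlap. No mesothelial, neural, erythroid, platelet or myeloid gene tested (2, 4, 3, 3 and 9 genes) was called either, while 1 of the 8 ILC2 and gate genes, Thy1, was called lower after injury.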

How the data were processed

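RNA-seq counts of 9 libraries were used. The authors deposited raw counts of reads for each gene. The RNA was amplified before library construction, per the labels' protocols, and the submitters' processing notes list FastQC, STAR, HTSeq and the mm9 build without versions or roles. The annotation and strand setting are not given in the sources used here. Overlapping and antisense genes therefore cannot be told apart. Symbols came from the table for 15969 genes and from a reference list for 7407. The genes, lists and roles were chosen with earlier results of these data known.

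Genes were kept with filterByExpr by group (15117 of 23466) and tested with edgeR 4.0.16 in R 4.3.3: TMM scaling, robust quasi-likelihood F tests in 1 fit of all 9 libraries, Benjamini-Hochberg adjustment over all genes kept, threshold 0.05. Each standard error is the absolute log2 fold change over the root of its F statistic. The fit was tested on simulated data. Folds against a group at 0 use 3 counts per library as floor. CPM per kb used the union of GENCODE M21 exons. Of genes outside the 42, each list's most abundant gene and that with the smallest injury p could be named, with defining markers at 0, genes called in lists, and the 10 genes highest in lung among those at 0 in uninjured meninges. Alternatives were DESeq2 1.42.0, RLE scaling, no filter, the 6 libraries compared, mitochondrial genes left out, a replicate block and leaving out each library. No libraries of a group agreed within sampling noise (chi-square over degrees of freedom at least 62.8).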

Additional observations from a re-analysis of the deposited data

How the results depend on the processing

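The injury comparison called 29 genes in all and 0 of the 42. These counts were 252 and 2 with DESeq2, 78 and 1 (Pdgfra) without the filter on low counts, 12 and 0 with only the 6 libraries compared, and 18 to 27 and 0 to 1 when 1 library was left out, lowest without injured meninges 2 and 19 without uninjured meninges 2. Pdgfra was the 1 gene called without uninjured meninges 3 (edgeR adjusted p = 0.045). Its adjusted p ranged from 0.0026 (DESeq2) to 0.39 (edgeR) over the alternatives that tested it. The fit of the 6 meningeal libraries was not among them. Lung against uninjured meninges called 96 genes and 8 of the 42. These were 419 and 15 with DESeq2, 193 and 12 without the filter, 226 and 13 with the 6 libraries compared, and 51 to 196 and 5 to 12 when 1 library was left out, lowest without lung 3 and highest in all genes without injured meninges 2 (53 without uninjured meninges 2). The cause was not tested. Col1a1 ranged from -3.43 to 0.20 in log2 fold change with injury when 1 library was left out, turning sign without uninjured meninges 1.

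Without genes also known in leukocytes, the epithelial sum was 7.36 CPM in meninges without injury and 14.1 CPM with it, and the endothelial sum in injured meninges was 93.4 CPM. Without Scgb1a1 the lung epithelial sum was 813 CPM. With mitochondrial genes left out the smaller totals raised all CPM, so that injured meninges stood at 44.98 CPM for epithelial and 241 CPM for endothelial genes. Lung 2 was the lowest lung library for 31 genes with TMM, with RLE and with mitochondrial genes left out.

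With the replicate number as a block, the injury comparison called 43 genes and 0 of the 42, and the lung comparison called 136 and 12. Deviations of same-numbered libraries correlated at -0.03 to 0.10 over genes and those of others at -0.11 to 0.09, with the own number best in 7 of 18 cases, so the numbers were not taken as pairs. The common biological coefficient of variation was 0.91 and the median standard error of the injury log2 fold changes was 1.33 for the genes described, which limits what low transcripts can show. The fits without 1 library of a group of 3 rest on 2 libraries there. Further lists, medians and folds without single libraries were examined after the data were seen.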

Other observations

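Genes at 0 counts in all 3 uninjured meningeal libraries were ranked by their mean CPM in lung. Of the first 10, 4 were among the 42 genes: Tmem100, Cldn18, Inmt and Bmp3. The 42 genes were chosen with such levels already seen, so this count describes the choice and supports nothing. The highest gene in the ranking was Cxcl15, a chemokine known from lung epithelium, with 96.4, 0.15 and 129.5 CPM in the lung libraries. Mal2, a membrane trafficking protein of epithelial cells, had 42.9, 4.198 and 29.8 CPM, and C7, a complement component, had 28.4, 6.26 and 40.1 CPM. The predicted gene Gm43085 had 41.5, 0 and 35.8 CPM. All 4 were lowest in lung 2, as the surfactant genes were. Hspa1a, an inducible heat shock gene, had 3.38, 57.1 and 81.3 CPM and Atf3, a stress-induced transcription factor, had 26.1, 47.3 and 50.3 CPM, both lowest in lung 1.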
